A study of Homo sapiens with 6 samples.

Results

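The genes of the cyclin D, CDK4/6 and CDK inhibitor group were followed in Huh7 cells, a human hepatocellular carcinoma line, with a control short hairpin RNA (shRNA) or an shRNA against CTSV, the gene of the lysosomal protease cathepsin V. The members were listed by gene name, with earlier results of these data known: CCND1, CCND2, CCND3, CDK4, CDK6, CDK2, CDKN1A, CDKN1B, CDKN2C and RB1. Of these 10 names, 9 matched an entry among 27394 gene names, and CCND2 matched none and was not analysed here. All 9 passed the filter on low counts. The RNA-seq libraries were 3 of control shRNA cells, whose genotype is given as WT, and 3 of CTSV knockdown cells, grown in DMEM with fetal bovine serum. The labels do not tie the 3 libraries of a group to separate cultures, so p-values here cover the spread between libraries, and that spread may be technical. No source used here gives the shRNA sequence, how many shRNAs were used or whether each line is 1 clone.

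Passage from G1 into S phase is driven by D-type cyclins, which are made in response to growth signals and bind the kinases CDK4 and CDK6. The active kinases phosphorylate the retinoblastoma protein, encoded by RB1, which then releases E2F transcription factors, and cyclin E with CDK2 completes the step. Inhibitors of the INK4 family, such as p18 from CDKN2C, block CDK4 and CDK6 alone, whereas the Cip/Kip inhibitors p21 (CDKN1A) and p27 (CDKN1B) act mainly on CDK2 and also take part in assembling cyclin D complexes. Cyclin D1 is among the genes often gained or raised in liver cancer. Only mRNA was measured here, not protein, phosphorylation or the cell cycle phase.

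CTSV checked the labels: raw counts were 755, 740 and 658 in controls and 304, 264 and 296 in knockdown libraries. Library totals lay between 16258803 and 18106207 counts. All 11 hepatocyte markers examined, among them ALB, AFP and HNF4A, were above a TMM-normalised level of 1 CPM (counts scaled to library size), and their summed level was 34100 to 34840 CPM in controls and 41600 to 42640 in knockdown libraries. Of the markers of other cell types, PTPRC, CD68, CD163, VWF, CDH5, KDR, DCN, ACTA2 and KRT7 matched no entry. The summed stellate cell or fibroblast markers (5 of 7 in the table) were at 46.4 to 52.6 CPM in controls and 61.6 to 69.0 in knockdown libraries. The immune markers (3 of 6 in the table, with LYZ the only one above 1 CPM) were at 73.4 to 81.2 and 55.2 to 60.6. Endothelial markers (2 of 5) were at 18.1 to 23.5 and 19.6 to 21.8 CPM, and cholangiocyte markers (4 of 5) at 175.8 to 192.8 and 173.7 to 187.4. That cholangiocyte sum mixes directions: control and knockdown means were 10.2 and 21.7 CPM for EPCAM and 107.2 and 94.9 for SOX9. For KRT19 they were 64.8 and 59.6, and for CFTR 3.63 and 3.98. The mitochondrial share of counts was 9.23% ± 0.245 in the control group against 11.6% ± 0.208 in the knockdown group (SD, n = 3 each). With mitochondrial genes left out, 4 members were still called, and the part of the other shifts in the results below was not tested.

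Cyclin D1 and its partner CDK4 were lower in the knockdown libraries, CDK6 was higher, p27 was slightly lower, and the other 5 members were not called. Calls came from the quasi-likelihood test of edgeR, with p-values adjusted by Benjamini-Hochberg over 15968 tested genes and a threshold of 0.05; only called genes are said to have risen or fallen. Among the 9 members, 3 fell and 1 rose, with a median log2 fold change of -0.16. In the whole table, 40.3% of tested genes were called, 21.6% as lower and 18.7% as higher, with a median of 0.02, so the number of members called is near the background. Offsets for transcript length and GC content turned the table's 3451 lower and 2982 higher genes into 4593 and 2413, with the same 4 members called. Where the 9 members stand apart from each other is in the size and sign of the changes, given next by role.

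**Figure D1:**
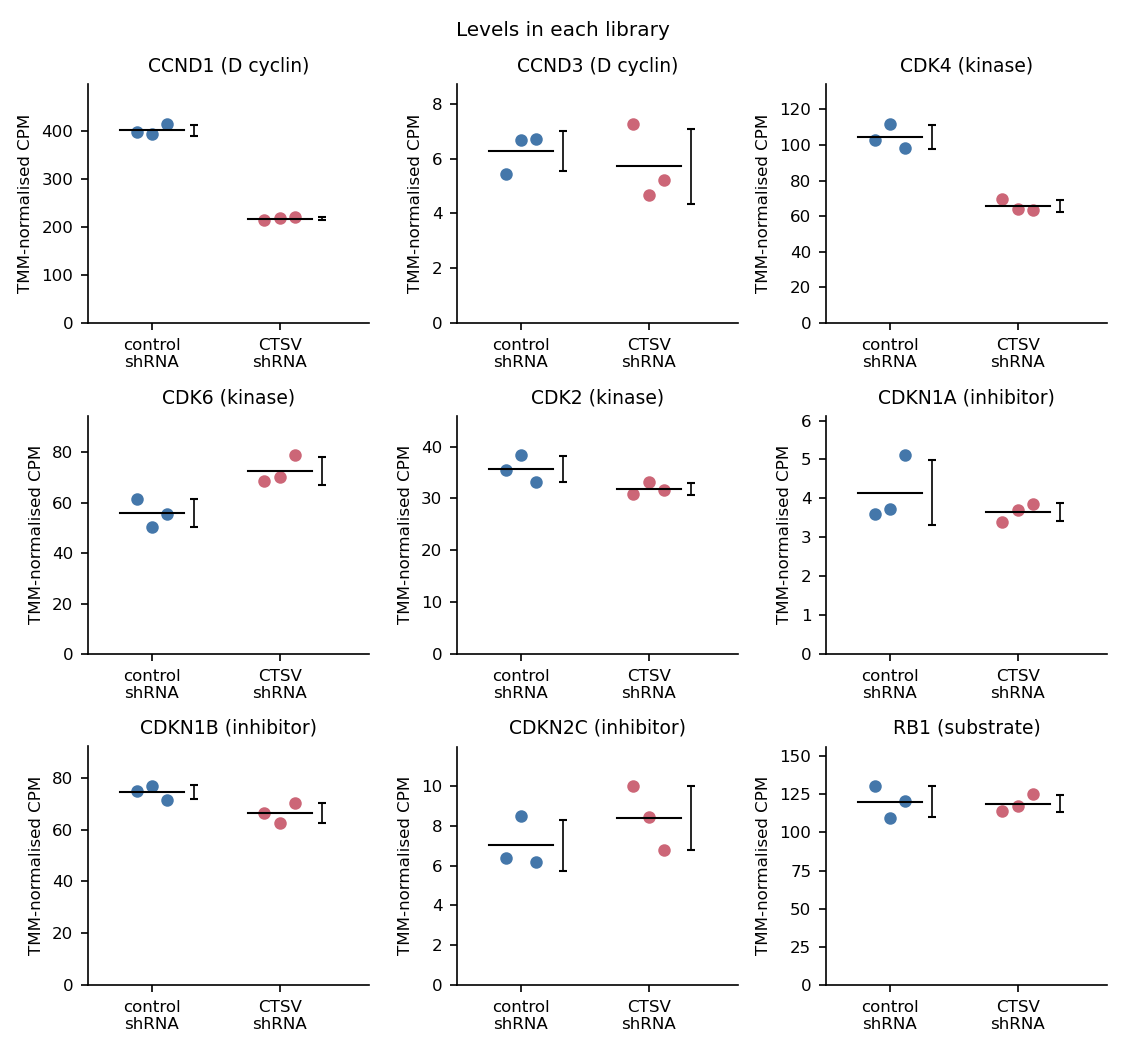
Level of each of the 9 measured genes in every library, as TMM-normalised CPM from 0 on the vertical axis, with control shRNA in blue and CTSV shRNA in red (n = 3 each). Horizontal lines are means and bars 1 SD. CCND1, CDK4, CDKN1B and CDK2 (not called) sit lower and CDK6 higher in all 3 knockdown libraries, with no overlap. RB1, CCND3, CDKN1A and CDKN2C overlap. Over the whole table, 49.2% of tested genes had groups that do not overlap.

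CCND1 encodes cyclin D1 and is annotated on the plus strand of chromosome 11, from 69641087 to 69654474 on hg38. It had 7090, 6534 and 6647 raw counts in controls and 3537, 3597 and 4007 in knockdown libraries. Normalised to library size these were 397.5, 393.2 and 414.1 CPM against 213.9, 217.9 and 220.4. The groups lay far apart, and the spread within each was small beside the gap: 401.6 ± 11.0 and 217.4 ± 3.28 CPM (SD, n = 3 each). CCND1 fell, with a log2 fold change of -0.88 (SE 0.0460; adjusted p = 1.05e-17 in the edgeR test), to 0.542 of the control level. Only 1.84% of tested genes had a log2 fold change as negative. The gene shares 1399 annotated bases with ORAOV1 on the opposite strand, which held 923 to 1092 counts over the 6 libraries, and no source used here says whether counting used strand.

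CCND3, the gene of cyclin D3, was the lower of the D cyclins measured. It was at 5.44, 6.68 and 6.73 CPM in controls and 7.26, 4.67 and 5.23 CPM in knockdown libraries, so that 1 knockdown library was above all controls and the other two were below them. Its log2 fold change was -0.14 with a 95% interval from -0.54 to 0.27 (edgeR's quasi-likelihood test, adjusted p = 0.623). A fall as large as that of CCND1 or CDK4 and a rise as large as that of CDK6 lie outside this interval. Its log2 fold change was -0.34 when knockdown replicate 1 was left out and -0.01 when knockdown replicate 2 was.

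Per kilobase of the longest annotated transcript, CCND1 made up nearly all of the D cyclin mRNA measured. Its share of the summed CCND1 and CCND3 level was 97.6%, 97.0% and 97.2% in controls and 94.3%, 96.3% and 95.9% in knockdown libraries. The knockdown shares were all lower, by 1.78 percentage points in the means. An exact two-sided permutation test gave p = 0.1, the smallest that 3 against 3 libraries allow. The gap was -0.859 points with the union of all exons as length, -1.03 without a length correction and -1.16 without knockdown replicate 1, and CCND2 is not part of this sum.

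CDK4 fell while its close relative CDK6 rose. CDK4 (chromosome 12, 57747727 to 57756013, minus strand) had 1833, 1856 and 1583 raw counts in controls and 1150, 1058 and 1152 in knockdown libraries. In CPM it was at 102.8, 111.7 and 98.6 against 69.6, 64.1 and 63.4. The lowest control library was well above the highest knockdown library. CDK4 had a log2 fold change of -0.67 (SE 0.0637; adjusted p = 9.11e-11 in the edgeR test), to 0.629 of the control level, and 3.95% of tested genes had a log2 fold change as negative. On the opposite strand CDK4 overlaps TSPAN31 by 2485 bases and MARCH9 by 916, which held 176 to 249 and 110 to 226 counts per library.

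CDK6 (chromosome 7, 92604921 to 92836594, minus strand) encodes the other kinase that D cyclins activate. It had 1097, 839 and 893 raw counts in controls and 1136, 1161 and 1433 in knockdown libraries. In CPM these were 61.5, 50.5 and 55.6 against 68.7, 70.4 and 78.8. The groups did not overlap, although the highest control library and the lowest knockdown library were close. CDK6 rose, with a log2 fold change of 0.38 (SE 0.0741; adjusted p = 7.82e-05 in the edgeR test), to 1.30 times the control level. A rise of that size or more was seen in 22.8% of tested genes. CDK6 has a long and AT-rich transcript (11612 bases, 39.5% GC) and CDK4 a short one (2076 bases, 53.6% GC). With offsets for length and GC content the log2 fold change of CDK6 was 0.29 and that of CDK4 -0.67, and both were called.

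Relative to each other the kinases therefore shifted. Per kilobase, CDK6 took 9.67%, 7.48% and 9.16% of the summed CDK4 and CDK6 level in controls and 15.0%, 16.4% and 18.2% in knockdown libraries. By this measure CDK4 was the larger part in every library, and each knockdown library had a higher CDK6 share than each control. The means were 8.77% ± 1.15 and 16.5% ± 1.60 (SD, n = 3 each), a difference of 7.77 percentage points (exact two-sided permutation test, p = 0.1, the smallest this design allows). This share does not depend on the library scaling, but its size depends on the lengths used: the difference was 10.1 points with the union of all exons and 17.6 without a length correction. Which kinase is the larger part depends on the lengths too. In knockdown libraries the raw counts were 1136, 1161 and 1433 for CDK6 and 1150, 1058 and 1152 for CDK4.

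**Figure D2:**
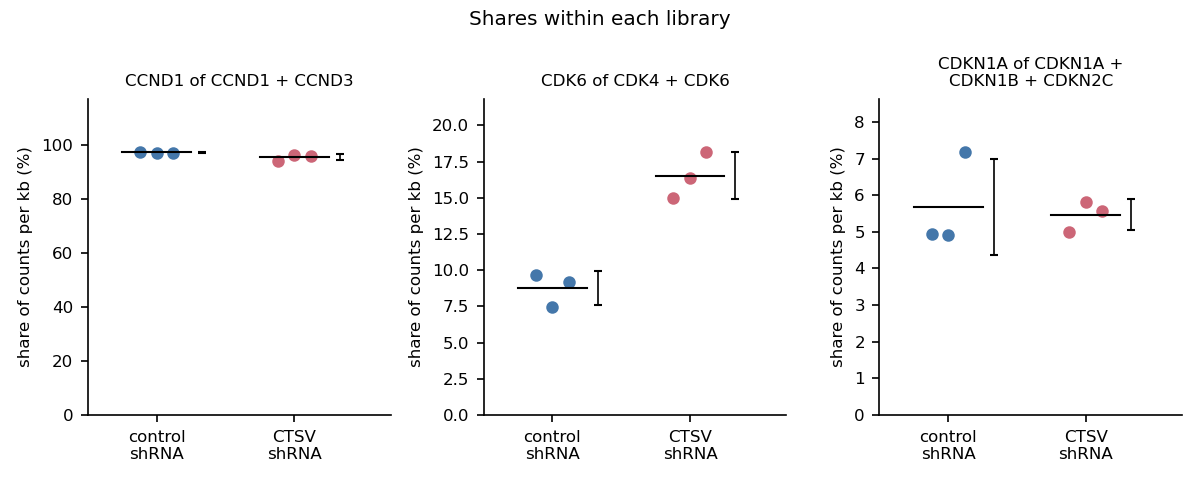
Share of counts per kilobase of longest transcript within each library, in percent from 0: CCND1 among the D cyclins measured, CDK6 among CDK4 and CDK6, and CDKN1A among the 3 inhibitors (points are libraries, lines means, bars 1 SD, n = 3 each). The CDK6 share is 7.48% to 9.67% in control and 15.0% to 18.2% in CTSV shRNA libraries, and the CDKN1A shares overlap.

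A start site window of CDK4 is shown because MYC, a known activator of CDK4 that binds CACGTG, also fell in these libraries. Whether MYC had a part in the fall of CDK4 was not tested. RefSeq start site windows were found for 7 members in 12 windows (GRCh38.p14), each taken as the 250 bases before the start. Some of them lie inside the annotated gene. The only RB1 window is at 48476200 to 48476449 on chromosome 13, within a gene annotated from 48303751 to 48481986. CCND1, CCND2 and CDK2 had no entry. The letters CACGTG, which read the same on both strands, occur 3 times in the CDK4 window. They are given below 5′ to 3′ on the gene's strand, with CACGTG in capitals and 8 bases on each side; their first bases lie 216, 196 and 101 bases before the start that RefSeq gives for this window. That start is not the outermost one: the window lies inside the annotated gene and overlaps annotated CDK4 exon sequence in GENCODE. The window's longest stretch free of annotated exons runs from 57752522 to 57752560. That stretch holds no whole CACGTG.
CDK4 box at chr12:57752513-57752534: caagcggtCACGTGtgatagca
CDK4 box at chr12:57752493-57752514: caacagatCACGTGgctgccat
CDK4 box at chr12:57752398-57752419: gtggcggtCACGTGcccagaac
Of 35116 such windows of all genes, 6.34% held the motif at least once and 28 windows (0.0797%) at least 3 times. The other member windows with a match were 2 of the 3 of CDKN2C, with 1 each, and both CDK6 windows had none. A match is a description of letters only, and no binding was measured.

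CDK2, the kinase that works with cyclins E and A, was at 35.4, 38.3 and 33.2 CPM in controls and 30.9, 33.1 and 31.6 CPM in knockdown libraries. The knockdown libraries were all below the controls, yet by little: the lowest control and the highest knockdown library nearly touched. Over the whole table, 49.2% of tested genes had groups that do not overlap. The log2 fold change was -0.16 (95% interval -0.34 to 0.02, adjusted p = 0.144, edgeR's quasi-likelihood test), and CDK2 was not called. It lies within PMEL on the opposite strand, which held 2 to 15 counts per library.

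Of the 3 inhibitor genes among the members, CDKN1B had the highest level and was the one called; inhibitors outside the members are described further on. CDKN1B, the gene of p27, was at 75.0, 76.8 and 71.6 CPM in controls and 66.4, 62.4 and 70.4 CPM in knockdown libraries. All knockdown libraries were below all controls, the nearest pair by little. The fall was small, a log2 fold change of -0.17 (SE 0.0662; adjusted p = 0.0435 in the edgeR test), and 31.2% of tested genes had a change as negative. In the authors' deposited table CDKN1B had an adjusted p of 0.0595, and DESeq2 gave 0.0581. The edgeR call was also lost without control replicate 1 (adjusted p = 0.0884) or 2 (0.108) and without knockdown replicate 1 (0.0812) or 2 (0.201).

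CDKN1A, the gene of p21, was the lowest of the 9. It was at 3.59, 3.73 and 5.11 CPM in controls and 3.39, 3.70 and 3.85 CPM in knockdown libraries, from 56 to 82 raw counts. Apart from control replicate 3 the libraries lay close together, and the groups overlapped. Its log2 fold change was -0.18 with a 95% interval from -0.67 to 0.31 (edgeR's quasi-likelihood test, adjusted p = 0.589), and -0.01 without control replicate 3. CDKN2C, the gene of p18, was at 6.39, 8.49 and 6.17 CPM in controls and 9.98, 8.42 and 6.77 CPM in knockdown libraries, again overlapping. Its log2 fold change was 0.26 with a 95% interval from -0.11 to 0.62 (edgeR's quasi-likelihood test, adjusted p = 0.272), 0.11 without knockdown replicate 1 and 0.41 without control replicate 2. Both intervals hold changes of the size seen in CDK6, downward for CDKN1A and upward for CDKN2C.

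Within the sum of CDKN1A, CDKN1B and CDKN2C per kilobase, CDKN1A took 4.94%, 4.92% and 7.19% in controls and 5.00%, 5.82% and 5.57% in knockdown libraries. The shares overlapped, with means of 5.68% ± 1.30 and 5.46% ± 0.421 (SD, n = 3 each) and an exact two-sided permutation p of 1.0. The difference of -0.223 points was 0.530 without control replicate 3 and 0.00947 without knockdown replicate 1.

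RB1 encodes the protein that CDK4 and CDK6 phosphorylate. It was at 130.3, 109.7 and 120.6 CPM in controls and 114.0, 117.5 and 125.0 CPM in knockdown libraries. The knockdown values lay within the range of the controls. The log2 fold change was -0.02 with the narrow 95% interval of -0.14 to 0.10 (edgeR's quasi-likelihood test, adjusted p = 0.848), so that changes as large as those of CCND1, CDK4 and CDK6 lie outside it. With length and GC offsets it was -0.12 (adjusted p = 0.0673, edgeR), also not called. RB1 overlaps LPAR6 on the opposite strand, which held 268 to 427 counts per library against 1823 to 2324 for RB1.

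**Figure D3:**
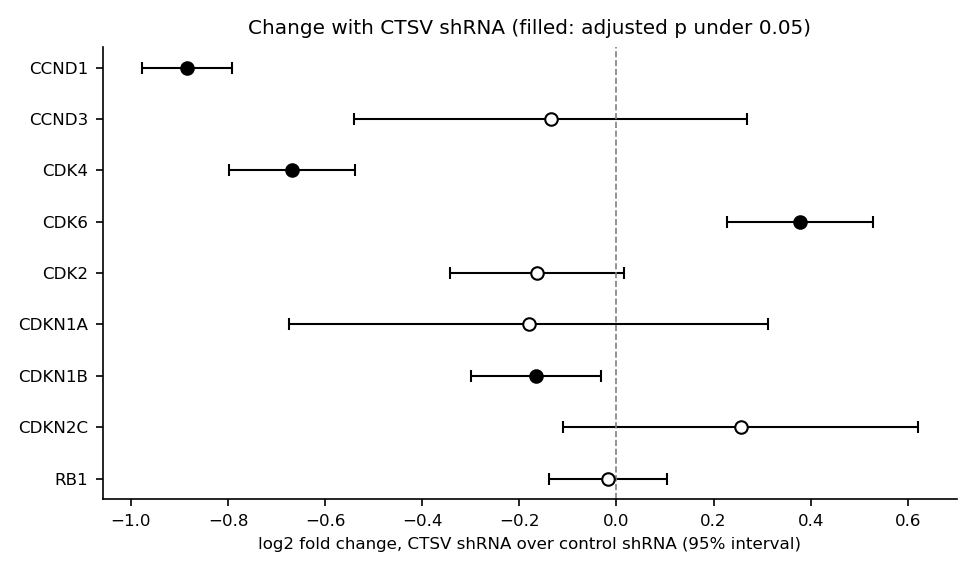
Log2 fold change of each measured gene, CTSV shRNA over control shRNA, on the horizontal axis, with 95% intervals from edgeR's quasi-likelihood fit (3 libraries a group). Filled points passed the adjusted p threshold of 0.05: CCND1 (-0.88), CDK4 (-0.67) and CDKN1B (-0.17) lie left of 0 and CDK6 (0.38) right of it.

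The order of levels per kilobase of longest transcript was nearly the same in both groups. In controls it ran from CCND1 (93.2 ± 2.56 CPM per kb) through CDK4 (50.3 ± 3.22), CDKN1B (28.0 ± 0.985), RB1 (25.1 ± 2.15), CDK2 (13.7 ± 0.988), CDK6 (4.81 ± 0.474), CCND3 (2.62 ± 0.305) and CDKN2C (2.42 ± 0.440) to CDKN1A (1.83 ± 0.370; SD, n = 3). Neighbours whose libraries overlapped were CDKN1B with RB1, CCND3 with CDKN2C and CDKN2C with CDKN1A. In knockdown libraries CDKN2C stood before CCND3, and that pair overlapped too. CCND1 and CDK4 stayed the highest there, at 50.5 ± 0.762 and 31.6 ± 1.63 CPM per kb, ahead of CDKN1B at 25.0 ± 1.50 (SD, n = 3). This order depends on the lengths used. Without a length correction, the knockdown means were 118.8 CPM for RB1, 72.6 for CDK6, 66.4 for CDKN1B and 65.7 for CDK4.

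The genes with the most similar pattern to CCND1 were sought among 9439 genes with a mean of at least 10 CPM, by Euclidean distance of log2(CPM + 0.5), centred on the control mean, over 6 libraries. The nearest were GPX2, a glutathione peroxidase gene (distance 0.116), the lipid droplet gene PLIN2 (0.129), the branched-chain aminotransferase gene BCAT1 (0.137), ALPK3 (0.139) and MCC (0.146). Their log2 fold changes lay between -0.97 and -0.82. All 6 libraries enter both the pattern and the fold change, so this is a description of likeness only.

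Inhibitors outside the member list were examined beside it. CDKN2B encodes p15, an INK4 inhibitor of CDK4 and CDK6, and was at 85.1, 92.9 and 89.0 CPM in controls and 31.6, 31.3 and 29.9 CPM in knockdown libraries. Every knockdown library was well under the lowest control. CDKN2B fell, with a log2 fold change of -1.52 (SE 0.0717; adjusted p = 7.64e-19 in the edgeR test); among the 9 members the most negative value was -0.88. CDKN2A, its neighbour on chromosome 9 and the gene of p16 and ARF, had a log2 fold change of -0.55 (SE 0.0979; adjusted p = 1.88e-05 in the edgeR test), from 42.8 to 29.3 CPM in the means. The antisense gene CDKN2B-AS1 overlaps CDKN2B by 6461 bases and CDKN2A by 524, and held only 25 to 74 counts per library. The remaining inhibitors CDKN2D (-0.46, adjusted p = 0.27) and CDKN1C (-0.26, adjusted p = 0.599) were near 2 to 3 CPM and were not called by edgeR. Of the 4 other inhibitors tested, 2 fell and 0 rose, with a median of -0.50, beside 21.6% of all tested genes called lower.

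In what follows, a value in parentheses after a gene is its log2 fold change, and a list's median is a median log2 fold change. The counts of each list stand beside those of the 9440 tested genes with a mean of at least 10 CPM. Of these, 3152 fell, 1864 rose and 4424 were not called, with a median of -0.07. Genes of cyclins A and B and CDK1 fell by small amounts, and those of cyclin E were not called. Among 9 tested genes of cyclins E, A and B with CDK1 and CDC25, 4 fell, 0 rose and 5 were not called, with a median of -0.12. Cyclin B1 gene CCNB1 (-0.29), cyclin A gene CCNA2 (-0.34), CCNB2 (-0.29) and the mitotic kinase gene CDK1 (-0.20, and -0.39 with length and GC offsets) fell. The cyclin E genes, which act with CDK2 after cyclin D, were not called: CCNE1 had a log2 fold change of 0.05 (adjusted p = 0.776) and CCNE2 at -0.12 (adjusted p = 0.688, edgeR). Leaving out knockdown replicate 1 ended the call of CCNB2 (adjusted p = 0.0523).

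RB relatives and E2F genes moved in both directions. Of 18 tested, 7 fell, 4 rose and 7 were not called, with a median of -0.05. The proliferation factor gene MYBL2 (-0.39), the DREAM subunit gene LIN52 (-0.47) and the E2F partner gene TFDP1 (-0.25) fell, and RBL2, the gene of the RB relative p130, rose (0.31). E2F1, the best known RB-bound factor, was not called (0.08, adjusted p = 0.38, edgeR). Among 23 E2F target genes of S phase entry, 11 fell, 2 rose and 10 were not called, with a median of -0.21. The licensing factor gene CDC6 (-0.31), the ribonucleotide reductase gene RRM2 (-0.34) and the helicase factor gene GINS1 (-0.33) fell, while the helicase subunit gene MCM6 rose (0.53). In all, 21 of the 23 had a value below 0, against 7669 of all 15968 tested genes and 5539 of the 9440 with a mean of at least 10 CPM, which had a median of -0.07.

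Genes whose products act on these proteins were mostly lower or not called. Of 6 genes of the CDK-activating kinase and the CDK chaperone, 4 fell and 0 rose, with a median of -0.30: the chaperone genes HSP90AB1 (-0.40) and HSP90AA1 (-0.31), and CDK7 (-0.39) and CCNH (-0.30, and -0.50 with length and GC offsets), which form the activating kinase. The kinase-targeting cochaperone gene CDC37 was at -0.01 and was not called (adjusted p = 0.881, edgeR). Of 16 genes of ubiquitin ligases that degrade D cyclins, p21 or p27, 6 fell, 2 rose and 8 were not called, with a median of -0.09. CKS1B, the SKP2 cofactor needed for p27 degradation, fell from 92.2 ± 2.95 to 58.6 ± 6.38 CPM (SD, n = 3 each), a log2 fold change of -0.66. DTL (-0.41), the adaptor that targets p21, and the cullin genes CUL4A (-0.24) and CUL1 (-0.22) fell as well. SKP2 itself rose (0.15, adjusted p = 0.0182, edgeR) and AMBRA1, the cyclin D adaptor, was not called (0.13, adjusted p = 0.328).

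Several transcription factors known to act on CCND1 were lower. Of 17 tested, 9 fell, 1 rose and 7 were not called, with a median of -0.24. Among all 9440 tested genes with a mean of at least 10 CPM, 3152 fell, 1864 rose and 4424 were not called. MYC was at 153.3, 163.1 and 158.6 CPM in controls and 91.6, 98.0 and 98.5 CPM in knockdown libraries. The groups were clearly apart, with a log2 fold change of -0.72 (SE 0.0550; adjusted p = 3.71e-13 in the edgeR test). ETS2 (-0.56), the AP-1 gene JUN (-0.45) and the Hippo pathway coactivator gene YAP1 (-0.31) fell. TCF7L2 was the 1 that rose (0.39, adjusted p = 0.00082, edgeR). CTNNB1, the gene of beta-catenin, had a log2 fold change of 0.00 and was not called (adjusted p = 0.953, edgeR). Among 11 factors known to act on the inhibitor genes, 2 fell (among them KLF6 at -0.33), 2 rose (the histone methyltransferase gene KMT2A at 0.21 and FOXO4 at 0.37) and 7 were not called, with a median of 0.00. FOXO3 and FOXO1, which act on CDKN1B, were at -0.02 and 0.00 and were not called. KMT2A was at 0.13 with length and GC offsets and also 0.13 without control replicate 2 (adjusted p = 0.0471, edgeR). The FOXO4 call was lost with DESeq2 (adjusted p = 0.118), with no low-count filter (0.0645), with length and GC offsets (0.0785), without control replicate 2 (0.202) or 3 (0.0683) and without knockdown replicate 1 (0.0688) or 2 (0.211).

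Among 14 tested kinases of the CDK family outside the core, 2 rose, 1 fell and 11 were not called, with a median of -0.08. CDK10 rose by 0.51 and the membrane-associated CDK14 by 0.27, and the Mediator kinase gene CDK8 had a log2 fold change of -0.28. CDK8 was not called without control replicate 2 (adjusted p = 0.0802) or knockdown replicate 2 (0.138). Of the 33 named pathway genes, 6 overlap another gene that holds over 10% as many counts and are uncertain. Among them, CCNA2 (EXOSC9), RBL2 (AKTIP), CCNH (RASA1) and CUL4A (PCID2) overlap a gene on the opposite strand and are uncertain without strand. CDK14 overlaps CLDN12 on the same strand, so that counting by strand would not separate them. CDK11A and CDK11B are near-identical copies whose reads the counting could split, and neither was called.

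**Figure D4:**
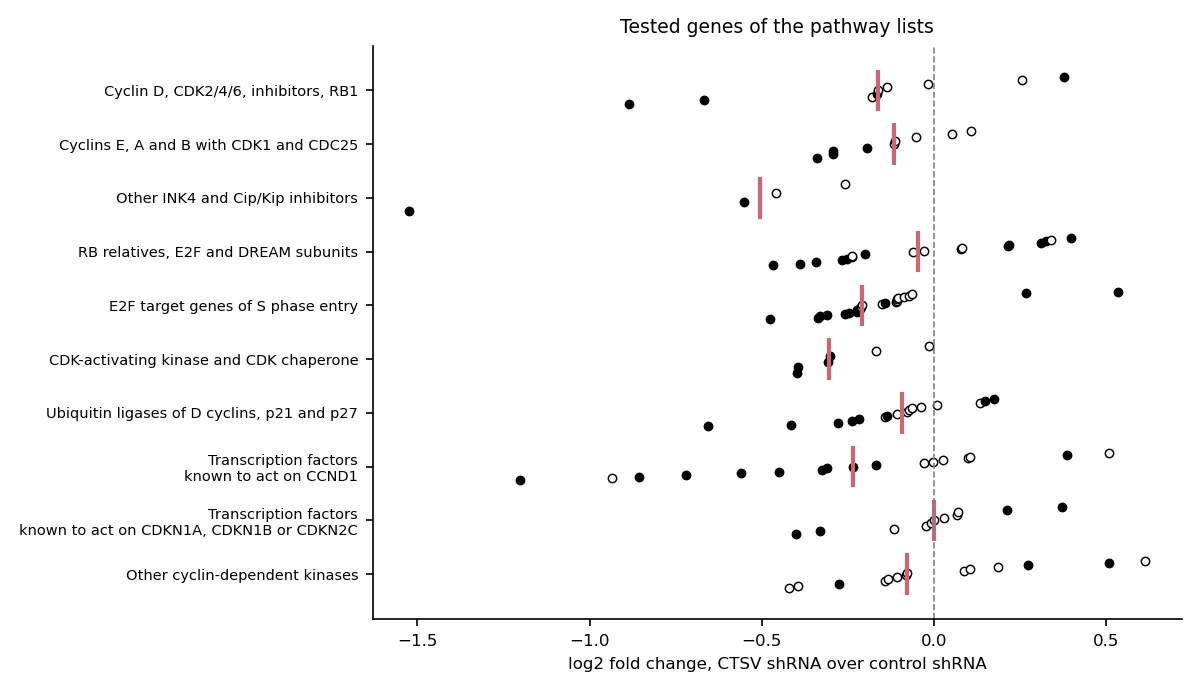
Log2 fold change, CTSV shRNA over control shRNA, of the 9 measured members (top) and of each tested gene in the 9 related lists; filled points passed the adjusted p threshold of 0.05 and red lines are medians. The point farthest left is CDKN2B (-1.52), and medians run from -0.50 for the other inhibitors to 0.00 for factors acting on the inhibitor genes.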

How the data were processed

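Total RNA of 6 Huh7 samples (TRIzol) was made into mRNA libraries with an NEBNext Ultra II kit, per the labels' protocols. The submitters' processing notes name HISAT2, StringTie and SAMtools with hg38. No source used here gives the counting tool, annotation, strand setting or handling of multiply mapped reads. The deposited table holds raw counts per gene by the authors, not normalized. It also holds the authors' log2 fold changes (control over knockdown, sign reversed here) and p-values, from a test that no source used here names. Of 28915 entries, 1521 repeated another entry of the same name with equal counts and were removed, leaving 27394 names.

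Genes were tested with edgeR 4.0.16 under R 4.3.3 (quasi-likelihood, TMM, filterByExpr, no covariate, Benjamini-Hochberg adjustment over 15968 genes). The biological coefficient of variation was 6.87%, which sets the precision of single genes beside the 16258803 to 18106207 counts per library. Standard errors are the fold change over the root of F. The fit was tested on simulated data with known changes. It called 69.4% of simulated 3-to-2-fold changes and 79.2% of 2-fold changes in the right direction. A gene that was not called may therefore still differ. Shares within a library were compared by exact permutation of the 6 libraries (scipy 1.17.1). GENCODE 29 gave transcript lengths and GC content. The members, CTSV, up to 4 called genes per list (those of smallest adjusted p) and the 5 genes nearest to CCND1 were named by rule, and 1 gene that the rule names is not reported here. Other genes (CDKN2D, CDKN1C, CCNE1, CCNE2, E2F1, CDC37, SKP2, AMBRA1, TCF7L2, CTNNB1, FOXO1, FOXO3, CDK11A, CDK11B and the marker genes) were named after their values were seen. The members and lists were chosen with earlier results of these data known. Alternatives were RLE scaling, 2 other low-count filters, a replicate block, DESeq2 1.42.0, length and GC offsets (loess span 0.5), no mitochondrial genes, other transcript lengths and leaving out each library.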

Additional observations from a re-analysis of the deposited data

How the results depend on the processing

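Of 635 comparisons with an alternative, over 50 results, 616 stayed the same, 15 lost the call and 4 turned direction. A gene stayed the same if it kept direction and side of the threshold. A count of genes stayed the same if it was within 1.5 times. Shares were judged by direction only. The falls of CCND1 and CDK4 and the rise of CDK6 were called under all 13 alternatives tried on them, at -0.96 to -0.87, -0.71 to -0.62 and 0.29 to 0.45. The lost calls concern CDKN1B, FOXO4, CDK8 and CCNB2, with their values in the report. RB1 was at 0.0401 without control replicate 1 and 0.011 without knockdown replicate 1, within -0.0827 to 0.0401 over all libraries left out in turn, and at -0.1205 with length and GC offsets. The same offsets moved the called values of CDK1 (-0.3853), CCNH (-0.5037) and KMT2A (0.1303) by over 1.5 times, as did leaving out control replicate 2 for KMT2A (0.1334). The difference in CDKN1A share was 0.530 without control replicate 3 and 0.00947 without knockdown replicate 1, and lay between -0.606 and 0.530 over all libraries left out in turn. The cause of these changes was not tested. DESeq2 called 5516 genes against 6433, and 3 to 4 members were called under each alternative. Replicate numbers are shared by the groups, and no effect shared by equal numbers was seen: same-numbered deviations correlated at -0.0122, -0.00253 and 0.0212. These values cannot decide whether the libraries were paired, since a pairing may leave no visible effect. With the replicate number as a block, 6486 genes and 4 members were called. Low counts limit CDKN1A, CDKN2C and CCND3, whose intervals are wide.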
